A study of Mus musculus with 6 samples.

Results

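The mitochondrial carrier family SLC25 was followed in mouse CD4+ T cells. Members were the protein-coding genes whose symbol begins with Slc25a and a number in GENCODE M21. Of 47 such genes, 37 had a mean level of at least 0.5 TPM (a transcript level scaled for length and for the library) over 6 libraries and are the members described here, out of 11100 protein-coding genes at or above that level in these cells. All 37 also passed the filter on low counts. The members were thus chosen by their mean TPM, so the levels below are a description, with no test.

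RNA was sequenced from 3 libraries of cells labelled Wtap KO and from 3 libraries of cells labelled wild type (WT), all of strain C57BL/6J. Wtap encodes a subunit of the nuclear complex that writes N6-methyladenosine (m6A) into RNA. By the labels, 4-hydroxytamoxifen at 1 µM was given for 24 h to deplete Wtap, and the protocol text is the same for WT libraries. Both groups were then activated with anti-CD3 and anti-CD28 under Th1 conditions (IL-12 and anti-IL-4) for 40 to 48 h, expanded in IL-2 and harvested on day 4. Nothing in the labels names the Cre line, the deleted part of Wtap or the age of the animals. Nor do they say that libraries came from separate animals, so a p-value measures the spread between these libraries, which may be technical.

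SLC25 proteins are small transporters, nearly all of them in the inner mitochondrial membrane, which is otherwise closed to charged metabolites. They bring in phosphate and ADP and let ATP out, move carboxylates and amino acids for the malate-aspartate shuttle and for biosynthesis, and import cofactors such as NAD+ and coenzyme A. Activated T cells enlarge their mitochondria and use these routes for growth.

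Depth was 37121040 to 44039467 estimated counts in Wtap KO libraries and 32363139 to 38546728 in WT libraries. Wtap itself averaged 117 ± 3.00 CPM (counts scaled to library size) in Wtap KO libraries and 105 ± 9.99 CPM in WT libraries (SD, n = 3 each; edgeR adjusted p = 0.371). Its level over the whole gene was thus not lower, and since the deleted part is not known this does not check the labels. Wtap KO 3 stood apart in sex-linked genes, with Kdm5d (Y chromosome) at 63.3 CPM against 2.43 to 3.53 CPM in the WT libraries, and Xist at 3.81 CPM against 3160 to 4448 CPM. The other Wtap KO libraries had 2.83 and 3.10 CPM of Kdm5d, and 1980 and 2162 CPM of Xist, below every WT library. The 9 CD4 T cell markers summed to 4323 to 4852 TPM in Wtap KO and 5434 to 5883 TPM in WT, and 2 of them, Cd3g and Cd4, fell. The 9 dendritic cell markers summed to 36.1 to 48.5 TPM in Wtap KO and 10.6 to 33.8 TPM in WT, the 2 CD8 T cell markers to 11.4 to 13.9 TPM and 7.18 to 7.79 TPM. B cell markers stood at 3.34 to 4.54 TPM in Wtap KO and 2.02 to 3.49 TPM in WT, NK cell markers at 0.991 to 1.32 TPM and 0.743 to 1.37 TPM. Macrophage markers were at 3.98 to 7.48 TPM in Wtap KO and 3.71 to 6.02 TPM in WT, and erythroid and platelet markers at 5.95 to 15.3 TPM and 4.28 to 12.7 TPM. By edgeR 2 of 7 tested dendritic (H2-Aa and Cd74), 1 of 2 CD8 (Cd8b1), 1 of 4 B cell (Ebf1) and 1 of 3 macrophage markers (Itgam) rose. Of the tested markers of these types, H2-Ab1 (dendritic) and Cd68 (macrophage) had negative log2 fold changes, of -0.92 and -0.52, and did not pass. Among NK markers 0 of 2 passed, and among erythroid and platelet markers 0 of 4. Of all genes tested, 5.75% were called higher and 3.49% lower. No marker was at 0 in all libraries. Their part in the carrier results was not tested.

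By level the family was led by the phosphate carrier and by 1 ADP/ATP carrier. Slc25a3, which brings in the phosphate used to make ATP, stood at 563, 597 and 637 TPM in the Wtap KO libraries and at 506, 483 and 519 TPM in the WT libraries. Slc25a5, the ADP/ATP carrier of proliferating cells (ANT2), stood at 388, 409 and 391 TPM in Wtap KO and at 374, 358 and 361 TPM in WT. Together these genes held most of the family's transcripts: Slc25a3 made up 38.9% to 41.5% of the summed TPM in Wtap KO and 37.4% to 39.1% in WT, and Slc25a5 25.5% to 27.8% and 27.2% to 27.8%. Next in the order of mean TPM came Slc25a51 (49.9), Slc25a11 (47.2), Slc25a36 (42.7), Slc25a12 (32.3), Slc25a45 (25.6) and Slc25a46 (22.3). Slc25a3 was above Slc25a5, and Slc25a5 above the rest, in every library. From Slc25a51 to Slc25a46, each gene's range over libraries overlapped that of the next, so their order is not fixed. The muscle-type ADP/ATP carrier Slc25a4 (ANT1) was at 22.0 TPM, far below Slc25a5, and the testis-type Slc25a31 was listed at 0 in every library.

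**Figure D1:**
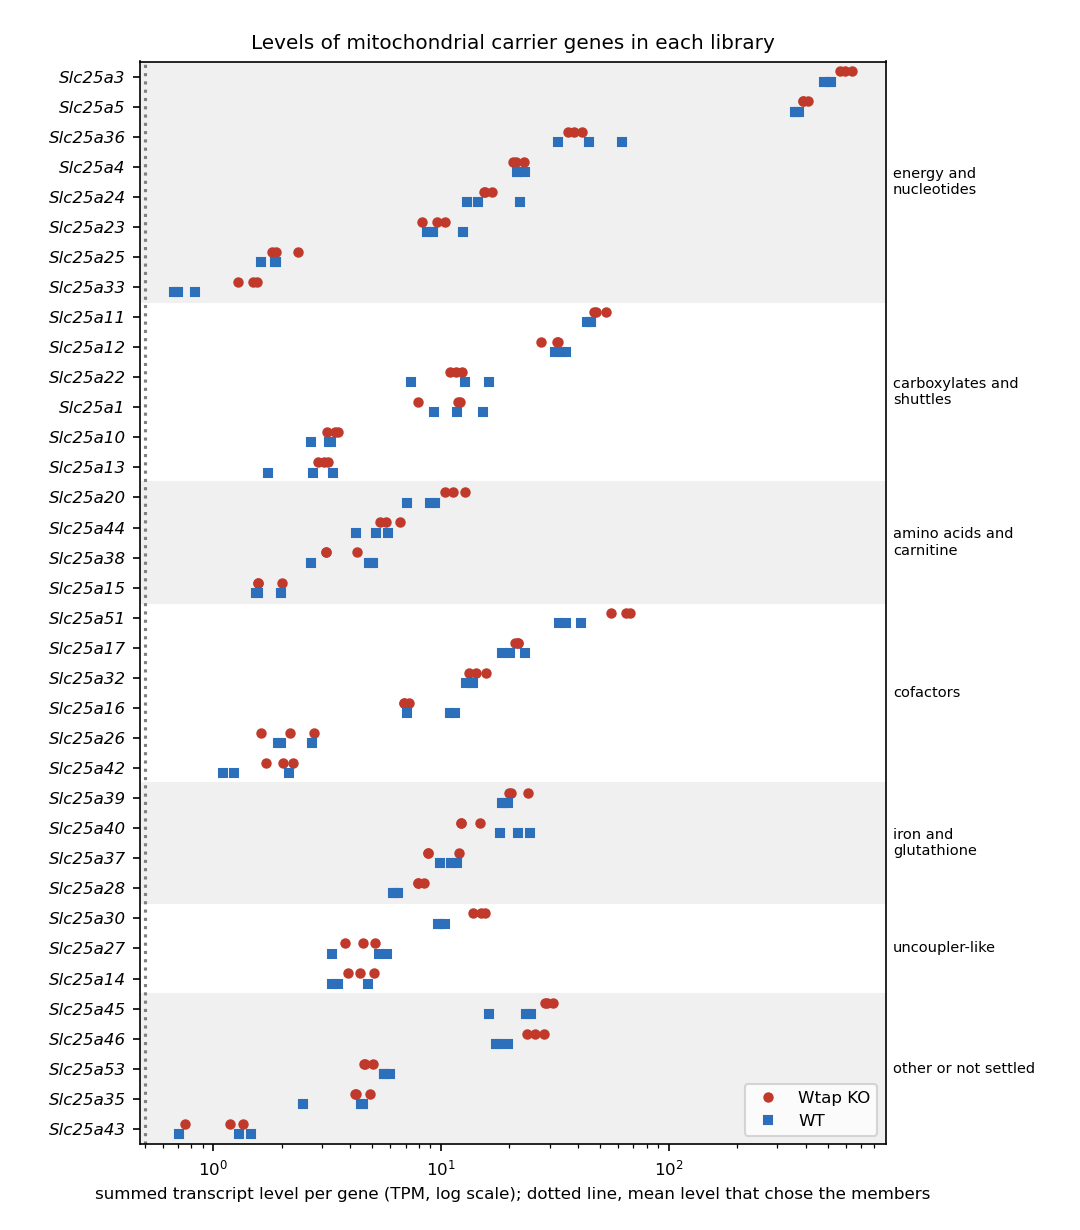
Level of the members (TPM, log axis; 1 member is not shown) in 3 Wtap KO libraries (circles) and 3 WT libraries (squares), ordered within roles by mean level. Slc25a3 and Slc25a5 lie far above all other members in every library, and the libraries of the groups are apart in TPM for 13 of 37 members (30.5% of all genes), among them the 4 called.

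The members nearest above the 0.5 TPM limit were Slc25a33 at a mean of 1.09, Slc25a43 at 1.13 and Slc25a15 at 1.71 TPM. The nearest below were Slc25a29 at 0.490, Slc25a47 at 0.247 and Slc25a18 at 0.185 TPM. Slc25a29, a carrier of basic amino acids, had 0.736, 0.447 and 0.639 TPM in Wtap KO and 0.176, 0.461 and 0.480 TPM in WT.

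The family's summed level was 1448, 1472 and 1536 TPM in Wtap KO and 1343, 1290 and 1326 TPM in WT. Without Slc25a3 and Slc25a5, the sum was 490 ± 21.8 TPM in Wtap KO and 453 ± 8.89 TPM in WT (SD, n = 3 each). In CPM, which is not divided by transcript length, the sums overlapped, at 2195 to 2392 CPM in Wtap KO and 2074 to 2201 CPM in WT. In bulk RNA, more cells of a type and more RNA per cell cannot be told apart.

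Between the groups, 3 members rose and 1 fell in Wtap KO, and 33 did not pass (edgeR quasi-likelihood test on gene counts, Benjamini-Hochberg adjusted over 17610 genes, threshold 0.05). The carriers of NAD+ (Slc25a51) and of pyrimidine nucleotides (Slc25a33) and the outer-membrane protein Slc25a46 rose; Slc25a40, a paralog of the glutathione carrier, fell. Of all genes tested, 9.23% were called (5.75% higher and 3.49% lower), and the 10.8% of members called is near that background, so the count is not a result about the family. The members' median log2 fold change was 0.04, with 21 positive and 16 negative, beside -0.00 over all genes. Changes were mostly small: 26 of 37 members (70.3%) lay within 0.25 of 0 on the log2 scale, beside 47.4% of all genes, which is a description with no test. Members were chosen by level, while all genes tested include rarer genes and genes that are not protein-coding, so these sets are unlike. In the 6 lists of other genes described below, this share ran from 41.2% (metabolite and ion transport) to 73.7% (iron, haem and glutathione). The share is thus not a result about the family. The libraries of the groups did not overlap in CPM for 11 members, 7 higher and 4 lower in Wtap KO, where 32.7% of all genes were so. An unadjusted p under 0.05 was reached by 8 members (21.6%), beside 26.3% of all genes.

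**Figure D2:**
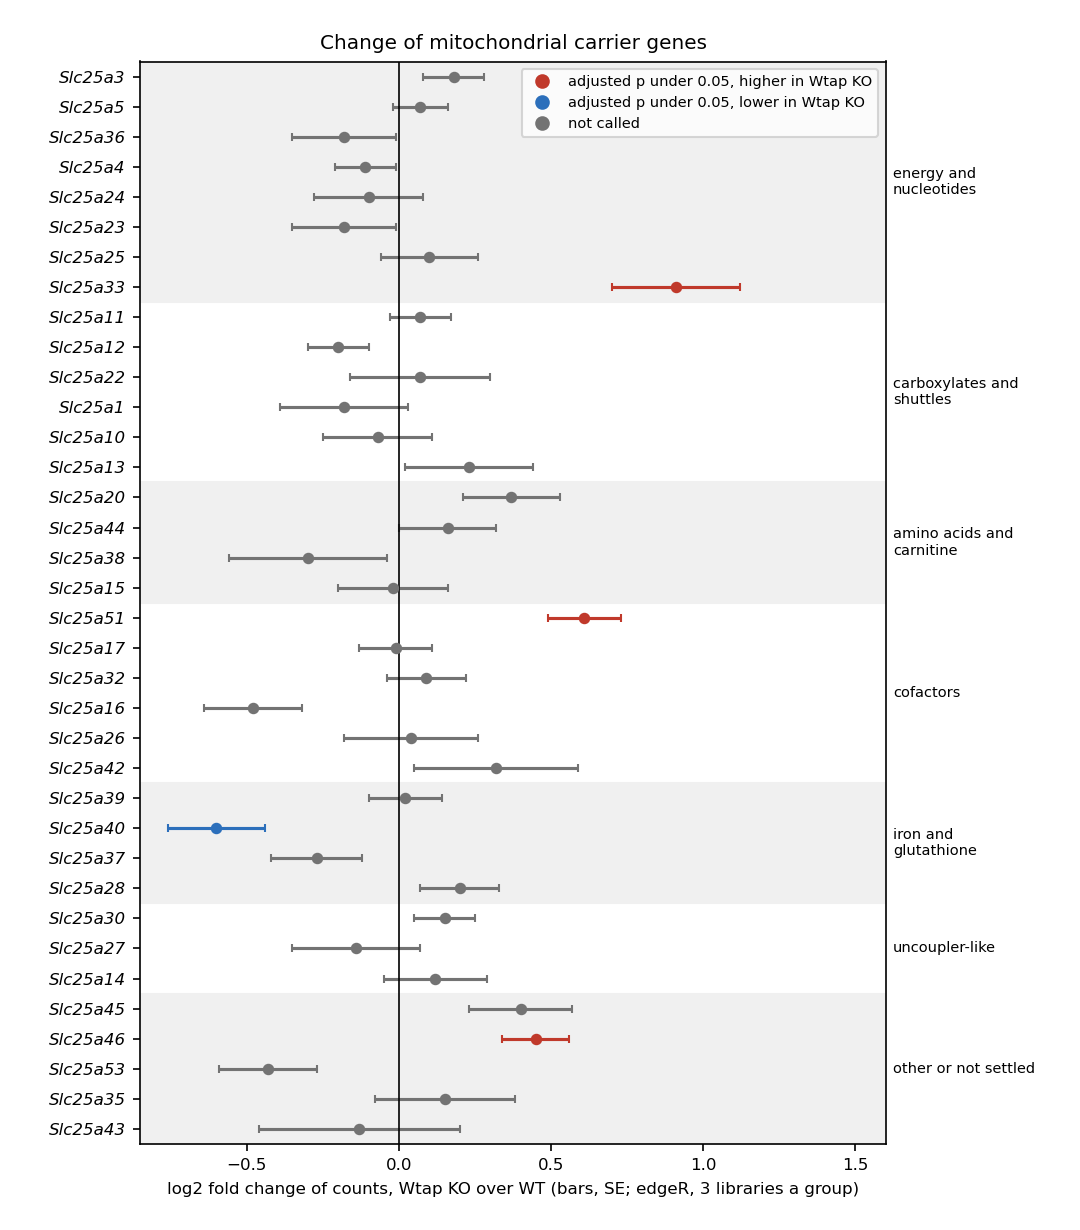
Log2 fold change of counts, Wtap KO over WT, with its SE for the members, by role (1 member is not shown). The 3 genes called higher and the 1 called lower sit at 0.91, 0.61, 0.45 and -0.60, and most other members lie within 0.25 of 0.

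Slc25a51 carries NAD+ into mitochondria, where the tricarboxylic acid cycle and respiration need it. It lies at chr4:45395923-45408766 (GRCm38). Its counts were 139, 136 and 158 CPM in Wtap KO and 85.8, 90.8 and 107 CPM in WT. Every Wtap KO library was above every WT library, and the gene was 1.53-fold higher, with a log2 fold change of 0.61 ± 0.12 (SE, edgeR adjusted p = 0.0185). The same order held per length, with 65.0, 56.1 and 68.0 TPM in Wtap KO and 33.1, 35.6 and 41.4 TPM in WT. Its main transcript by count, Slc25a51-201, held 65.9 ± 2.12% of its counts in Wtap KO and 70.2 ± 2.94% in WT, and the short Slc25a51-203, at 1005 bases, 21.4 ± 2.47% and 17.2 ± 1.29%. The difference in share did not pass for either (limma adjusted p = 0.550 for Slc25a51-201 and 0.443 for Slc25a51-203). In Slc25a51-203, its most abundant transcript by TPM, 11.8% of the 31-base stretches also occur in another gene, mostly in the pseudogene Gm17831. That pseudogene had at most 0.0221 CPM in any library. The longer Slc25a51-201 was not searched in this way.

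Slc25a33, a pyrimidine nucleotide carrier tied to mitochondrial DNA and RNA synthesis, lies at chr4:149744036-149774277. By mean TPM it was the lowest member, and it had 2.57, 2.34 and 2.68 CPM in Wtap KO and 1.27, 1.5 and 1.25 CPM in WT. The groups did not overlap, and the gene was 1.88-fold higher (log2 fold change 0.91 ± 0.21 SE, edgeR adjusted p = 0.0333). These values rest on 95.2 to 121 counts per Wtap KO library and 45.5 to 47.9 per WT library. Exons of the antisense gene Gm13068 overlap 281 bases of it on the other strand, and the labels do not say whether counting used strand. Gm13068 averaged 0.138 ± 0.0246 CPM in Wtap KO and 0.0744 ± 0.0396 CPM in WT. The other pyrimidine nucleotide carrier, Slc25a36, was far more abundant and did not pass: it stood at 102, 112 and 121 CPM in Wtap KO and 161, 119 and 101 CPM in WT (log2 fold change -0.18 ± 0.17 SE, edgeR adjusted p = 0.544). Without WT 1, its highest library, its log2 fold change was 0.02.

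Slc25a46 is an outer-membrane relative of the carriers with a role in mitochondrial fission and cristae, and no transported substrate is established. It lies at chr18:31556111-31609911. It had 99.9, 114 and 118 CPM in Wtap KO and 85.9, 75.8 and 80.5 CPM in WT, again with no overlap. The rise was 1.37-fold (log2 fold change 0.45 ± 0.11 SE, edgeR adjusted p = 0.0341). It overlaps B930094E09Rik on the other strand by 383 bases, a gene with 0.0882 ± 0.0340 CPM in Wtap KO and 0.25 ± 0.0753 CPM in WT.

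Slc25a40 was the member that fell. With its paralog Slc25a39 it belongs to the carriers that bring glutathione into mitochondria, and it lies at chr5:8422850-8454797. It had 29.7, 35.4 and 36.5 CPM in Wtap KO and 62.2, 49.4 and 42.5 CPM in WT, 0.659-fold of WT (log2 fold change -0.60 ± 0.16 SE, edgeR adjusted p = 0.0475). The groups did not overlap, although the WT libraries were spread widely. Slc25a39 stood at 27.9, 24.6 and 23.2 CPM in Wtap KO and 24.1, 23.6 and 27 CPM in WT (log2 fold change 0.02 ± 0.12 SE, edgeR adjusted p = 0.944). The difference between the paralogs in their change was not tested. Most Slc25a40 counts came from transcripts annotated as having a retained intron, which held 70.9 ± 2.67% in Wtap KO and 66.3 ± 4.03% in WT. Longer transcripts weigh more in counts, and the main one of these, Slc25a40-204, has 4467 bases. Per length it had 4.37, 5.09 and 5.61 of the gene's 12.3, 12.2 and 14.9 TPM in Wtap KO. In WT it had 9.27, 6.67 and 5.34 of 24.7, 21.8 and 18.2 TPM. With protein-coding transcripts alone, an alternative chosen after seeing the data, Slc25a40 was lower by more, at a log2 fold change of -0.85 (edgeR adjusted p = 0.0456).

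**Figure D3:**
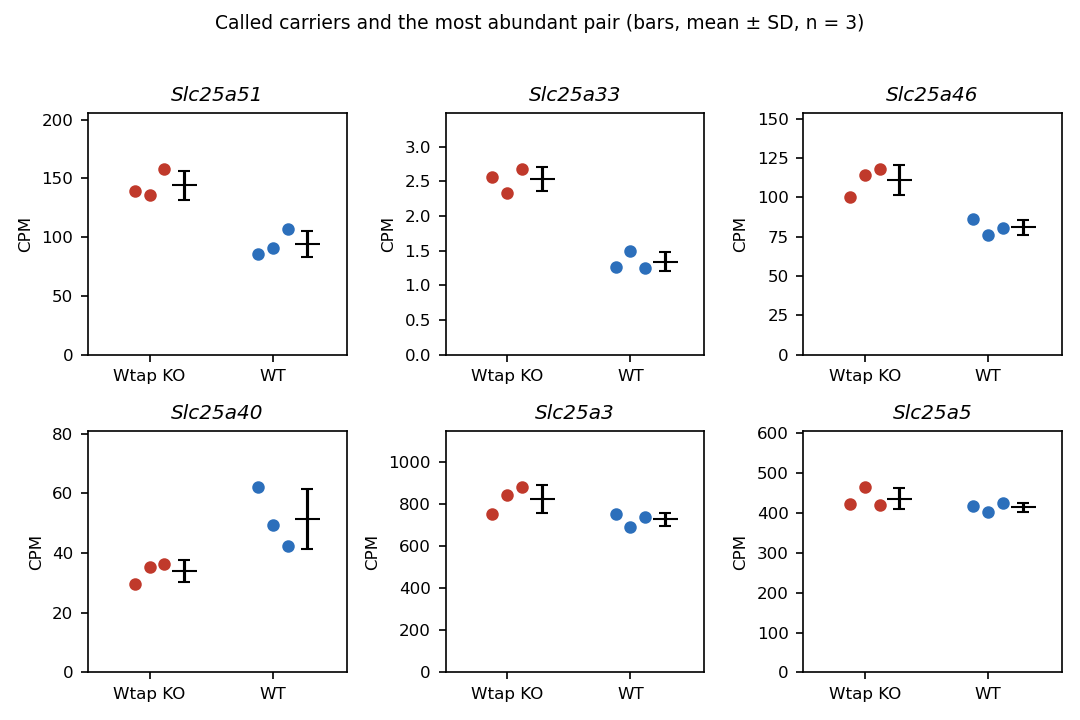
CPM in each library (points) with mean ± SD (bars, n = 3) for the 4 called members and the most abundant pair, Slc25a3 and Slc25a5, Wtap KO left of WT. The groups are apart in the 4 called members and overlap for Slc25a3 and Slc25a5.

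Without WT 1 all 4 calls held, and without WT 3 those of Slc25a51 and Slc25a40 held. Without WT 2, Wtap KO 1, Wtap KO 2 or Wtap KO 3, no member passed by edgeR, with 5, 5, 5 and 6 members at an unadjusted p under 0.05. Over all genes the calls dropped to 565, 397, 361 and 704, against 1626 with all libraries. For Slc25a51 the edgeR adjusted p was then 0.0806, 0.0658, 0.0681 and 0.0629, for a log2 fold change of 0.54 to 0.65. Without Wtap KO 3, whose sex-linked genes differ, the log2 fold changes were 0.54 for Slc25a51, 0.87 for Slc25a33, 0.41 for Slc25a46 and -0.66 for Slc25a40.

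**Figure D4:**
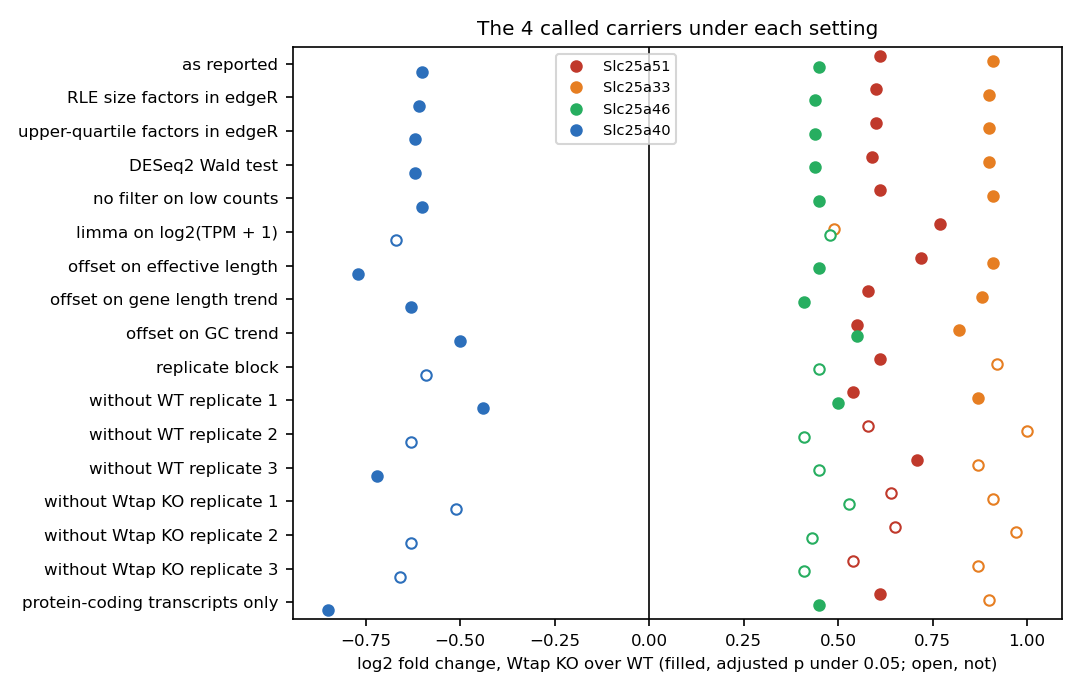
Log2 fold change of Slc25a51, Slc25a33, Slc25a46 and Slc25a40 under each setting, filled where the adjusted p was under 0.05 and open where it was not. Every point keeps its side of 0, and all 4 are open when WT 2 or any 1 of the Wtap KO libraries is left out.

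Among the 8 carriers of phosphate and nucleotides, 1 rose (Slc25a33) and 7 did not pass. Slc25a3 averaged 826 ± 67.0 CPM in Wtap KO and 728 ± 30.8 CPM in WT, with 1 WT library level with the lowest Wtap KO library (log2 fold change 0.18 ± 0.10 SE, edgeR adjusted p = 0.289). Slc25a5 averaged 436 ± 26.2 CPM in Wtap KO and 415 ± 11.4 CPM in WT (log2 fold change 0.07 ± 0.09 SE, edgeR adjusted p = 0.683). Of the 31-base stretches of Slc25a5, 67.1% also occur in another gene, most often in the pseudogene Gm5560, which was listed at 0 to 0.157 CPM, so its split of reads is uncertain. Slc25a4 averaged 34.7 ± 0.479 CPM in Wtap KO and 37.4 ± 2.40 CPM in WT. The calcium-regulated ATP-Mg/phosphate carriers Slc25a24, Slc25a23 and Slc25a25 had log2 fold changes of -0.10, -0.18 and 0.10.

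With all transcripts summed, none of the 6 carboxylate and shuttle carriers passed by edgeR, DESeq2 or limma, 0 had an unadjusted edgeR p under 0.05, and all 6 lay within 0.25 of 0. Slc25a11 exchanges oxoglutarate for malate and, with the aspartate/glutamate carriers Slc25a12 and Slc25a13, forms the malate-aspartate shuttle. Slc25a11 stood at 61.2, 56.4 and 54.2 CPM in Wtap KO and 55.2, 53.2 and 55.0 CPM in WT. Slc25a12 (aralar) stood at 62.5, 59.0 and 63.6 CPM in Wtap KO and 74.4, 69.1 and 69.8 CPM in WT, apart but short of the threshold (log2 fold change -0.20 ± 0.10 SE, edgeR adjusted p = 0.215). With protein-coding transcripts alone Slc25a12 was called lower, at a log2 fold change of -0.57 (edgeR adjusted p = 0.0302). Its paralog Slc25a13 (citrin) was rarer, at 7.13, 8.26 and 7.94 CPM in Wtap KO and 8.76, 6.16 and 5.02 CPM in WT (log2 fold change 0.23 ± 0.21 SE, edgeR adjusted p = 0.555). Slc25a1, which exports the citrate used for lipid synthesis, averaged 15.3 ± 3.91 CPM in Wtap KO and 17.3 ± 2.62 CPM in WT. The glutamate carrier Slc25a22 averaged 18.1 ± 1.02 CPM in Wtap KO and 17.3 ± 6.00 CPM in WT, and the dicarboxylate carrier Slc25a10 5.38 ± 0.684 CPM and 5.63 ± 0.610 CPM.

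None of the 4 carriers of amino acids and carnitine passed by edgeR, DESeq2 or limma, and 1, Slc25a20, had an unadjusted edgeR p under 0.05. Slc25a20 brings acylcarnitines in for fatty acid oxidation and had 18.5, 17.8 and 20.9 CPM in Wtap KO and 12, 15.4 and 16.9 CPM in WT. Its groups were apart, with a log2 fold change of 0.37 ± 0.16 (SE, edgeR adjusted p = 0.175). The glycine carrier Slc25a38, needed for haem synthesis, averaged 4.31 ± 0.762 CPM in Wtap KO and 5.32 ± 1.67 CPM in WT. The ornithine carrier Slc25a15 averaged 5.83 ± 0.752 CPM in Wtap KO and 5.90 ± 0.767 CPM in WT, and the branched-chain amino acid carrier Slc25a44 19.7 ± 2.05 CPM and 17.7 ± 3.07 CPM.

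Of the 7 cofactor carriers, Slc25a51 rose and 6 did not pass. Slc25a16, linked to coenzyme A, had the largest negative change among those 6, with 20.2, 21.8 and 18.6 CPM in Wtap KO and 32.5, 29.8 and 22.3 CPM in WT. The groups were apart in CPM, with a log2 fold change of -0.48 ± 0.16 (SE, edgeR adjusted p = 0.0917). Slc25a42, which carries coenzyme A, had 6.11, 5.38 and 7.13 CPM in Wtap KO and 3.78, 3.84 and 7.28 CPM in WT, with 1 WT library above all others (log2 fold change 0.32 ± 0.27 SE, edgeR adjusted p = 0.506). With protein-coding transcripts alone its log2 fold change was -0.24. Slc25a26 imports S-adenosylmethionine, the methyl donor that m6A writers also use in the nucleus. It averaged 3.02 ± 0.390 CPM in Wtap KO and 2.94 ± 0.608 CPM in WT (log2 fold change 0.04 ± 0.22 SE, edgeR adjusted p = 0.94). An interval of 2 SE around that change runs from -0.41 to 0.49, so a change of that size could not be told from 0 at this depth. The folate and FAD carrier Slc25a32 and the peroxisomal Slc25a17 had log2 fold changes of 0.09 and -0.01.

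Among the 4 iron and glutathione carriers, Slc25a40 fell and 3 did not pass. The iron importers Slc25a37 (mitoferrin 1) and Slc25a28 (mitoferrin 2) lay on opposite sides of 0. Slc25a37 had 37.4, 38.8 and 50.5 CPM in Wtap KO and 44.3, 51.4 and 56.9 CPM in WT, overlapping (log2 fold change -0.27 ± 0.15 SE, edgeR adjusted p = 0.298). Slc25a28 averaged 13.4 ± 0.334 CPM in Wtap KO and 11.7 ± 0.759 CPM in WT (log2 fold change 0.20 ± 0.13 SE, edgeR adjusted p = 0.362). With protein-coding transcripts alone Slc25a28 was called higher in Wtap KO, at a log2 fold change of 0.94 (edgeR adjusted p = 0.04).

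None of the 3 carriers that resemble uncoupling proteins passed by edgeR or DESeq2, and 0 had an unadjusted edgeR p under 0.05; by limma on log2(TPM + 1), 1 passed, Slc25a30. Slc25a30 was chosen for mention after its values were seen, because its level depended on how transcript length was treated. Its counts averaged 31 ± 0.537 CPM in Wtap KO and 28 ± 1.32 CPM in WT (log2 fold change 0.15 ± 0.10 SE, edgeR adjusted p = 0.426). Per length it stood at 15.0, 13.8 and 15.7 TPM in Wtap KO and 9.72, 9.77 and 10.4 TPM in WT. With an offset for effective length the log2 fold change was 0.52 (edgeR adjusted p = 0.0303). Its 444-base transcript Slc25a30-204 held 1.49%, 4.62% and 3.89% of its counts in Wtap KO and 1.75%, 0.030% and 1.20% in WT. Slc25a14 and Slc25a27 had log2 fold changes of 0.12 and -0.14. Ucp2, an uncoupling protein of the same family outside the symbol rule, was far more abundant at 499 ± 41.1 CPM in Wtap KO and 502 ± 55.3 CPM in WT.

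Of the 5 members with other or unsettled substrates, Slc25a46 rose and 4 did not pass. Slc25a45 had 57.1, 58.1 and 59.3 CPM in Wtap KO and 31.8, 48.4 and 52.0 CPM in WT. The groups were apart, but WT 1 lay far below the other WT libraries (log2 fold change 0.40 ± 0.17 SE, edgeR adjusted p = 0.180). Slc25a53, on the X chromosome, had 8.39, 8.26 and 9.32 CPM in Wtap KO and 9.89, 11.8 and 13.3 CPM in WT (log2 fold change -0.43 ± 0.16 SE, edgeR adjusted p = 0.122). Slc25a35 and Slc25a43 had log2 fold changes of 0.15 and -0.13.

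Transcript use was then compared within genes, as the share of a gene's estimated counts given to each transcript. Over all genes 143 of 23241 transcripts were called, 0.615% (limma on the log2 ratio of each transcript to the gene's other transcripts). Of 70 SLC25 transcripts from 26 genes, 1 was called, Slc25a44-204, and 10 had an unadjusted p under 0.05, which 11.3% of all transcripts tested had. kallisto splits reads between similar transcripts, and the error of that split is not in the tables.

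Slc25a44-204 held 14.6%, 11.0% and 15.4% of the counts of Slc25a44 in Wtap KO and was listed at 0 in each of the WT libraries (limma adjusted p = 0.00082). The test adds a pseudocount, a small constant, to the counts before taking their ratio. With the transcript at 0, its ratio in each WT library was set by that pseudocount against the gene's other counts. The p-value thus does not measure how this transcript varies between WT libraries. That is 120, 89.1 and 122 estimated counts per Wtap KO library. Over the WT libraries, 0 of 1855 counts would allow a share of up to 0.162%, by 3 counts over the group and for counting error only. The share was 13.7% of 2427 counts over the Wtap KO libraries. That limit takes every count of the gene as able to tell the transcripts apart. Only reads over the parts that differ between them can do so, so the real limit is higher and not known. In the annotation (GRCm38, minus strand), the transcripts differ in their first exon, which ends at 88424774 on chromosome 3 in Slc25a44-204, 46 bases short of its end at 88424728 in Slc25a44-201 and Slc25a44-202. The shorter exon leaves out the start codon of Slc25a44-201 and Slc25a44-202, and coding begins in the next exon. Slc25a44-203, with another first exon end, has the same 942 coding bases as Slc25a44-204. Slc25a44-201 and Slc25a44-202 have 999 and 684 coding bases from the same start, so they also differ from each other after the first exon. The gene's total did not pass, at 17.5 to 21.6 CPM in Wtap KO and 14.6 to 20.7 CPM in WT (edgeR adjusted p = 0.594). The shares of Slc25a44-201 swung between 0.688% and 26.9% in Wtap KO and between 18.9% and 43.7% in WT.

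**Figure D5:**
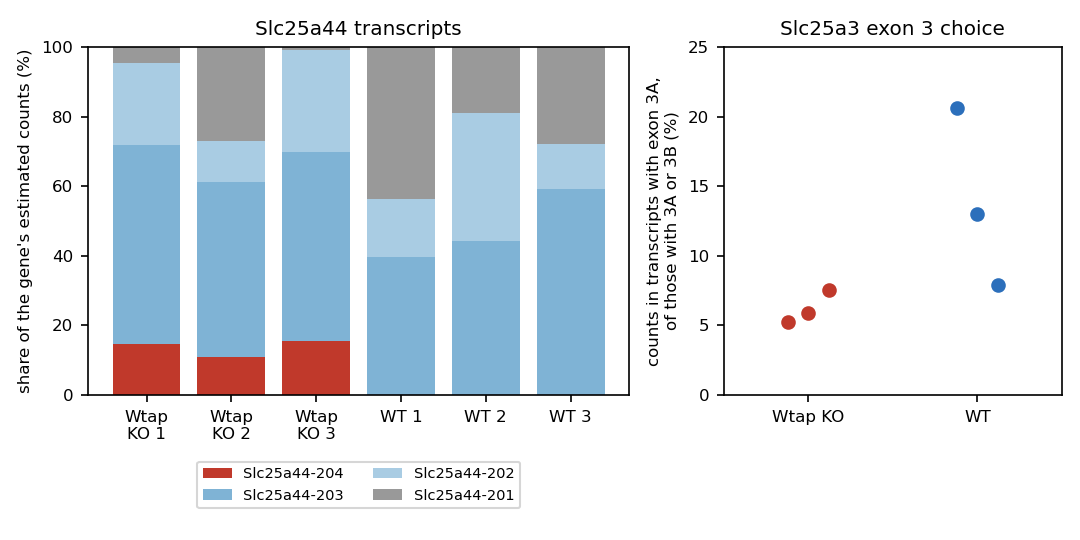
Left, share of the estimated counts of Slc25a44 given to each of its 4 transcripts, per library. Right, counts in Slc25a3 transcripts with exon 3A as a percentage of those with exon 3A or 3B. Slc25a44-204 has 11.0% to 15.4% in the Wtap KO libraries and 0 in WT, and the exon 3A share is 5.25% to 7.52% in Wtap KO and 7.94% to 20.6% in WT. Both depend on how kallisto split counts between similar transcripts.

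Slc25a3 has 2 versions of exon 3. Exon 3A is known from heart and skeletal muscle and exon 3B from most other tissues, and they encode alternative versions of the same stretch of the phosphate carrier. They are shown because they are what tells the isoforms of the family's most abundant member apart. Capitals mark bases that differ when the exons are set against each other without gaps from their 3′ ends, where 77 of 122 positions (63.1%) are the same; exon 3A has 125 bases (chr10:91122207-91122331, minus strand) and exon 3B has 122 bases (chr10:91121922-91122043, minus strand).
Slc25a3 exon 3A: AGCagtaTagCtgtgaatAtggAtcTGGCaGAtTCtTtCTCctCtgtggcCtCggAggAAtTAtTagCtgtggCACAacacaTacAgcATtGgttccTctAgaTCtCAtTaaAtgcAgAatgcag
Slc25a3 exon 3B: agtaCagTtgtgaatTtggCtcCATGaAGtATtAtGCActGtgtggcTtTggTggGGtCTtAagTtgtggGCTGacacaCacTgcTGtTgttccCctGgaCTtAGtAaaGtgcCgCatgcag

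Exon 3B dominated in every library. Transcripts with exon 3A held 5.25%, 5.87% and 7.52% of the counts with either exon in Wtap KO, against 20.6%, 13% and 7.94% in WT. The groups were apart by a narrow margin between Wtap KO 3 and WT 3, and this share was chosen after its values were seen and is not tested. Slc25a3-202, which carries exon 3A with 99 further bases and is annotated for nonsense-mediated decay, held 64.9% to 100% of the exon 3A counts in the Wtap KO libraries, and 33% in WT 1, 73.7% in WT 2 and 100% in WT 3. The muscle-type coding transcript Slc25a3-206 was estimated at 0, 7.68 and 976 counts in Wtap KO and 3425, 663 and 0 counts in WT, so its level is uncertain within each group. The coding transcript Slc25a3-203, counted with exon 3B, had 990, 338 and 280 counts in Wtap KO and 67.6, 154 and 3313 counts in WT. It was highest where Slc25a3-206 was at 0 and lowest where that was highest. The exon 3A share thus depends on how kallisto split counts between these transcripts, and so does the gap between the groups. The main 3B transcript Slc25a3-201 held 83.6 ± 2.18% of the gene's counts in Wtap KO and 72.2 ± 2.83% in WT (limma adjusted p = 0.0940). Slc25a3-202 held 4.85 ± 0.413% in Wtap KO and 7.2 ± 1.09% in WT (limma adjusted p = 0.254).

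Many carrier transcripts were annotated as not protein-coding. In 8 members more than 50% of the counts came from such transcripts, in 20 members less than 10%, with a median of 8.64%. These are shares of counts, in which longer transcripts weigh more. Slc25a43, Slc25a39, Slc25a12 and Slc25a40 led with 79.6%, 76.6%, 75.1% and 74.9% over all libraries. The share was apart between the groups in 5 members, higher in Wtap KO for Slc25a12 and Slc25a15 and lower for Slc25a28, Slc25a37 and Slc25a51, as a description. It was apart in 12.2% of 12839 protein-coding genes. In Slc25a28 it was 58.8 ± 7.82% in Wtap KO and 75.6 ± 4.06% in WT, mostly in the retained-intron transcript Slc25a28-202, at 41.1 ± 2.86% and 54.1 ± 1.94% (limma adjusted p = 0.195). In Slc25a37 the retained-intron transcript Slc25a37-203 held 19.8 ± 1.94% in Wtap KO and 32.2 ± 6.40% in WT (limma adjusted p = 0.263), and the coding Slc25a37-201 80.0 ± 1.86% and 67.5 ± 6.44%. In both mitoferrin genes the coding share was thus the larger in Wtap KO, short of the threshold. Slc25a12-207, annotated for nonsense-mediated decay, held 71.1 ± 0.45% in Wtap KO and 66.6 ± 1.16% in WT (limma adjusted p = 0.416).

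Features that the symbol rule did not use were compared on each gene's most abundant transcript by TPM. Members had a median length of 1925 bases, beside 2052 bases over all genes tested, a GC content of 50.2% beside 48.7%, and 7 exons beside 5. The pentamer GGACT, a common form of the m6A consensus, was searched on the transcript strand. It occurred in 34 of 37 members (91.9%) and in 78.3% of all genes, at a median of 1.20 and 0.951 per kb. All members are protein-coding and above the TPM limit, while 12923 of the 17610 genes tested were protein-coding. The sets are thus unlike. The members were not compared with other protein-coding genes above the limit, so whether these features set the family apart was not tested. A match is a description of the letters, and m6A was not measured in these libraries. In the called members there were 2 (Slc25a51-203), 5 (Slc25a33-201), 2 (Slc25a46-201) and 5 (Slc25a40-204) such matches. These transcripts differ in length, and the matches per kb were 1.99, 2.65, 0.458 and 1.119. The members were spread over 17 chromosomes, with 4 on the X chromosome (Slc25a5, Slc25a53, Slc25a14 and Slc25a43).

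Other genes of mitochondrial transport and linked metabolism were counted in 6 lists of 84 genes, of which 80 were tested. Not all of them encode mitochondrial proteins, and the lists include cytosolic enzymes such as Mdh1, Got1, Acly and Shmt1. In all, 3 rose and 1 fell, 5.0% beside 9.23% of all genes, with a median log2 fold change of -0.06. By edgeR none passed among 3 carriers outside the symbol rule, among 17 genes of other mitochondrial metabolite and ion transport (median -0.26, with 6 apart and lower in Wtap KO, as 15.5% of all genes were), or among 16 genes of carrier import. An unadjusted edgeR p under 0.05 was reached by 1, 5 and 4 of them, and DESeq2 called 0, 2 (both lower) and 0. In the list of malate-aspartate and citrate shuttle enzymes, 1 of 13 rose, Gpd2, and the other 12 were not called. Gpd2 is the mitochondrial glycerol phosphate dehydrogenase, which is not part of the malate-aspartate or citrate shuttle. It averaged 18.2 ± 2.69 CPM in Wtap KO and 11.9 ± 1.51 CPM in WT (log2 fold change 0.61 ± 0.16 SE, edgeR adjusted p = 0.0487). The call of Gpd2 was lost in 13 of 16 alternatives, among them each left-out library, with an adjusted p of up to 0.199 and a log2 fold change of 0.46 to 0.73 over all 16. Of 12 one-carbon genes, 1 rose: Shmt1, the cytosolic serine hydroxymethyltransferase, averaged 22.4 ± 2.10 CPM in Wtap KO and 9.46 ± 0.900 CPM in WT (log2 fold change 1.24 ± 0.14 SE, edgeR adjusted p = 0.00229), and its call held in all 16 alternatives. Of 19 genes of iron, haem and glutathione, 1 rose and 1 fell. Gpx4, the glutathione peroxidase that guards against lipid peroxidation, averaged 36.2 ± 0.499 CPM in Wtap KO and 49.3 ± 4.77 CPM in WT (log2 fold change -0.44 ± 0.11 SE, edgeR adjusted p = 0.0395). The call of Gpx4 was lost in 8 of 16 alternatives, with an adjusted p of up to 0.157.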

How the data were processed

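RNA of 6 libraries (3 Wtap KO, 3 WT, grouped by sample title) was analysed; reads were 50 bp, paired-end, per the labels' protocols. The submitters' processing notes name kallisto 0.44.0, DESeq2 and the build GRCm38 (mm10), with neither an annotation release nor a strand setting. The authors deposited estimated counts, TPM, length and effective length for 142647 transcripts per library. Of these, 99.15% matched GENCODE M21, holding 99.71% to 99.75% of the counts. Sums per gene were taken of the deposited estimated counts, then rounded, and of the deposited TPM values.

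Genes were tested with edgeR 4.0.16 (R 4.3.3; TMM, filterByExpr, robust quasi-likelihood, genotype as the only term), adjusted over all genes. CPM use TMM library sizes; SE is that of the log2 fold change. Transcript shares were tested with limma 3.58.1 on log2 ratios with a pseudocount of 0.5, for transcripts with a mean count of at least 10 and a mean share of 5% to 95% in genes with a mean count of at least 50. Both tests were tested on simulated data. The alternatives were other scaling, DESeq2 1.42.0, limma on log2(TPM + 1), offsets for length and GC, a replicate block, and leaving out each library. Values in every library are given for members called, the 8 with the highest mean TPM and up to 6 more by change with a mean CPM of at least 5. The members and lists were chosen with earlier results of these data known. Results for 1 carrier and 1 other mitochondrial gene are not reported here by name; both stay in the counts.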

Additional observations from a re-analysis of the deposited data

How the results depend on the processing

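Of the members, 4 were called as reported, 2 by limma on log2(TPM + 1), and between 0 and 5 when each library was left out in turn. With the replicate number as a block, 1 member was called (Slc25a51). Deviations from the group means correlated at -0.103, 0.0502 and 0.140 between same-numbered libraries, and at -0.198 to 0.154 between the others. With 3 libraries a group the deviations sum to 0, so these values cannot show whether the numbers pair libraries. In the 6 other lists, 4 genes were called as reported, 9 by DESeq2 and 2 by limma on log2(TPM + 1). There 2 were called with the effective-length offset, 12 with the GC offset, 1 with the replicate block and between 1 and 8 with libraries left out. The calls over all genes moved too. They were 1626 of 17610 as reported, 2496 of 34583 by DESeq2 and 806 of 15691 by limma on log2(TPM + 1). Of 17610 genes, 1318 were called with the effective-length offset, 2239 with the GC offset and 1061 with the replicate block. With libraries left out, 361 to 2282 were called. Of SLC25 transcript shares, 1 was called as reported, and 0 with the replicate block, where 3 of all 23241 transcripts were called and the limma adjusted p of Slc25a44-204 was 0.0657. With shares limited to 10% to 90% the number was 0, since Slc25a44-204 was then not tested. Without each library in turn, Slc25a44-204 was called every time, with a limma adjusted p of 0.00506 to 0.0161. In these fits too the WT ratios were set by the pseudocount.

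Log2 fold changes turned sign in at least 1 alternative for 18 of the 33 members not called, all with a reported log2 fold change of at most 0.32 in size. They included Slc25a11 with the GC offset (-0.03), Slc25a36 without WT 1 (0.02, and down to -0.32 without WT 3) and Slc25a42 with protein-coding transcripts alone (-0.24); the cause was not tested. The called members kept their direction in all 16 alternatives. Besides the libraries named with them, calls were lost for Slc25a33, Slc25a46 and Slc25a40 by limma on log2(TPM + 1) (adjusted p = 0.0674, 0.0535 and 0.0501) and with the replicate block (0.0726, 0.0855 and 0.0939), for Slc25a33 and Slc25a46 without WT 3 (0.0509 and 0.0505), and for Slc25a33 with protein-coding transcripts alone (0.0502). Calls were gained for Slc25a16 by DESeq2 and without WT 3, Slc25a53 without WT 1, Slc25a12 and Slc25a28 with protein-coding transcripts alone (-0.57 and 0.94, edgeR adjusted p = 0.0302 and 0.04) and Slc25a30 by limma on log2(TPM + 1) and with the effective-length offset. Of all calls, 62.2% were higher as reported, 52.6% by DESeq2, 52.7% with the GC offset and 74.4% by limma on log2(TPM + 1). The values of Slc25a33 rest on fewer than 50 counts in each WT library.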
